A study of Mus musculus with 4 samples.

Results

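The comparison set the spleen library of TRIF-KO mice injected with TNF against that of wild-type C57BL/6 mice given the same injection, 1 library each, 2 of the 4 libraries of the series. All mice were 10 weeks old and received 100 µl intravenously, either PBS or 9 µg recombinant murine TNF, and spleens were taken 4 h later. Suspensions went through red blood cell lysis and dead-cell removal before 10x Genomics single-cell RNA sequencing. The allele behind the TRIF-KO label and the number of mice per library are not stated in the labels. The TRIF-KO and wild-type PBS libraries served as the untreated pair, and 4 values in a row always give the wild-type pair first (PBS, then TNF) and the TRIF-KO pair second (PBS, then TNF).

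TRIF, encoded by Ticam1, is the adaptor through which Toll-like receptors 3 and 4 reach interferon regulatory factors and NF-kB. TNF acts through its receptors to release NF-kB from its IkB inhibitors, and NF-kB then switches on chemokines, cytokines, survival genes and its own inhibitors. In the spleen, neutrophils, monocytes and macrophages are the main producers of inflammatory mediators, B, T and NK cells take part as responders, and the mouse spleen also makes red blood cells.

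Filtering for 200 or more detected genes and no more than 10% mitochondrial UMIs left 5254 of 6855 in the wild-type TNF library and 7061 of 8060 in the TRIF-KO TNF library. A UMI counts 1 captured RNA molecule, and the kept barcodes held 32339866 and 65302861 of them, with medians of 4768 and 7351 per barcode. More than 10% mitochondrial UMIs were found in 22.4% of the wild-type TNF barcodes against 6.26% to 11.6% in the other libraries. The wild-type and TRIF-KO TNF libraries shared 14 barcode sequences. With 1 library per group there is no spread between mice, no difference could be tested, and the 95% intervals cover counting error only.

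Ticam1 RNA was present in the TRIF-KO libraries and was not lower there. Whole-spleen Ticam1 stood at 6.64, 3.90, 8.32 and 5.77 CPM (UMIs scaled to a summed total of 1000000). In B barcodes the values were 9.21, 5.43, 12.6 and 9.56 CPM, and in monocytes and macrophages 13.6, 9.13, 14.5 and 16.6 CPM. Because the allele is not stated, the level of Ticam1 RNA could not check the genotype here. Of 222 genes within 10 Mb of Ticam1 (GRCm38, chromosome 17, 56269319 to 56276786, minus strand), 45 were measured in at least 1 lineage, 0 were 2-fold different in 2 or more lineages and 2 in 1.

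Barcodes were assigned to a lineage from at least 2 distinct marker genes. After TNF, neutrophils made up 1.85% of the wild-type library (97 barcodes) and 5.75% of the TRIF-KO library (406 barcodes), a ratio of 3.11 (2.49 to 3.93). Erythroid barcodes stood at 9.69% and 15.4%, a ratio of 1.59 (1.43 to 1.77), and monocytes and macrophages at 2.95% and 4.28%, a ratio of 1.45 (1.19 to 1.77). B barcodes took 56.1% in wild-type and 45.6% in TRIF-KO, a ratio of 0.813 (0.773 to 0.855). With PBS the neutrophil ratio was 0.301 (0.234 to 0.387) and the erythroid ratio 0.627 (0.532 to 0.740), both on the other side of 1.

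**Figure D1:**
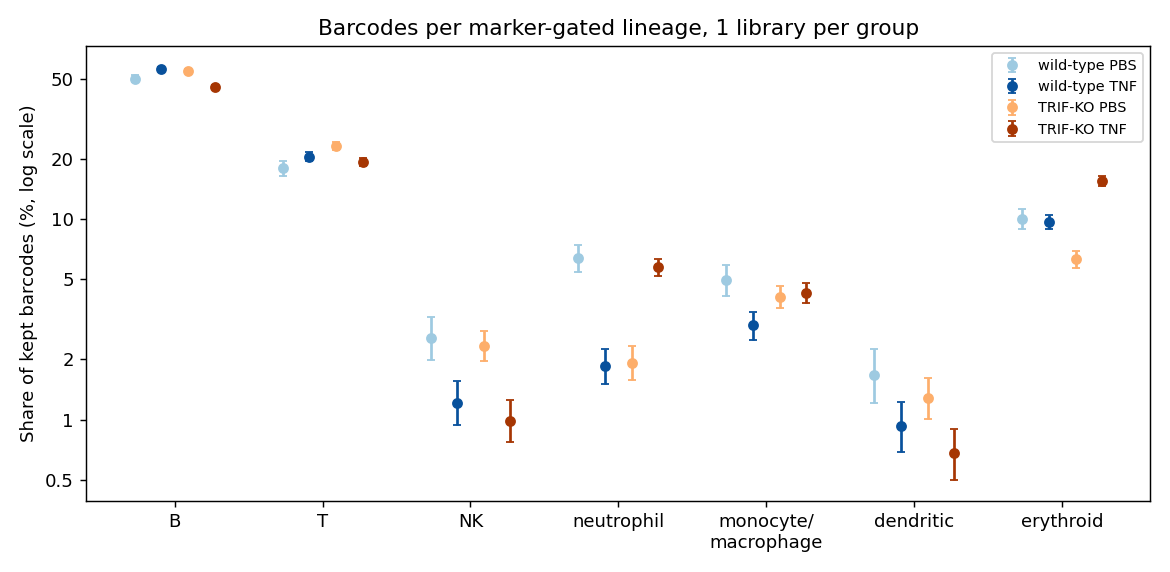
Share of kept barcodes (%, log scale) in 7 marker-gated lineages of the 4 libraries, with exact binomial 95% intervals. Neutrophils are at 1.85% in wild-type TNF and 5.75% in TRIF-KO TNF.

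The T share was 20.4% and 19.2%, NK 1.22% and 0.991%, and dendritic 0.933% and 0.680%. The remaining barcodes carried markers of several lineages (3.86% and 5.27%) or too few markers (2.59% and 2.34%). Dendritic barcodes, 49 and 48, had none of their own gate markers among the 10 leading genes, which included Fabp5, Cst3, Fscn1 and Tbc1d4. Fabp5, Cst3 and Fscn1 are on the list of dendritic cell maturation genes used here. The name dendritic was given by the gate.

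Over the whole spleen, 2395 genes were measured (at least 100 UMIs over both TNF libraries and 50 CPM in 1). Of these, 32 (1.34%) were at least 2-fold higher in TRIF-KO and 16 (0.668%) at least 2-fold lower, and scaling by the median of ratios gave 34 and 9. Of the 32 higher genes, 16 were on the neutrophil granule and surface list or among the neutrophil gate markers. S100a8, an antimicrobial calcium-binding protein, stood at 2951, 1625, 881 and 7388 CPM. Lcn2, an iron-scavenging granule protein, stood at 148, 183, 38.5 and 723 CPM. Both were lowest in TRIF-KO PBS and highest in TRIF-KO TNF, and the neutrophil share of barcodes also differed between the libraries. In summed counts more cells of a type and more RNA per cell cannot be told apart.

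4 of the 32 higher genes encode immunoglobulin heavy chains. Ighg2c stood at 0.043, 0.402, 0.031 and 71.2 CPM, and 4575 of its 4652 UMIs in TRIF-KO TNF came from 1 barcode. The lower genes included Socs1, a feedback inhibitor of cytokine signalling, at 17.6, 73.9, 20.2 and 32.6 CPM, and Cd83, an activation marker, at 38.6, 109, 46.1 and 54.0 CPM. Both were highest in wild-type TNF.

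Promoter stretches of genes at the centre of the comparison are shown because they carry a motif of the kB type, the type bound by NF-kB. A fixed 10-letter form of the kB motif was sought on both strands in the 250 bases upstream of each RefSeq start (GRCm38.p6). Other forms of the kB motif were not sought. Capitals mark each match, and matches overlap in Rel. Tnfaip3 has another RefSeq window, without a match. The stretches lie at chr12:55492648-55492897 (minus strand) for Nfkbia, chr10:19015411-19015660 (minus) for Tnfaip3, chr11:23770970-23771219 (minus) for Rel, chr5:90903649-90903898 (plus) for Cxcl2 and chr5:90785851-90786100 (plus) for Cxcl3.
Nfkbia: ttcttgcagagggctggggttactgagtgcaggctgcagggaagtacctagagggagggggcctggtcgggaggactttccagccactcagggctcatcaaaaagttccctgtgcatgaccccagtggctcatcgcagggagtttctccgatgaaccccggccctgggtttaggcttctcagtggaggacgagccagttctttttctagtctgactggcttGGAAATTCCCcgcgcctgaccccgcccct
Tnfaip3: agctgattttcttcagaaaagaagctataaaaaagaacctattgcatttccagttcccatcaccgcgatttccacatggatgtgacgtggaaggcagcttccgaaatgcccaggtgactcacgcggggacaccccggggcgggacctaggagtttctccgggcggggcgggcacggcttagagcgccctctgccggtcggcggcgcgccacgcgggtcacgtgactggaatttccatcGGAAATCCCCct
Rel: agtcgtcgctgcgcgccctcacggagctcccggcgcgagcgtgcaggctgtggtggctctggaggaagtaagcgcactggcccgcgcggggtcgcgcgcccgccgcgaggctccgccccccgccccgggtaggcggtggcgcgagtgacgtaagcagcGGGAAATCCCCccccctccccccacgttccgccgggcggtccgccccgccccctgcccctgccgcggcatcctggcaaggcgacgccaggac
Cxcl2: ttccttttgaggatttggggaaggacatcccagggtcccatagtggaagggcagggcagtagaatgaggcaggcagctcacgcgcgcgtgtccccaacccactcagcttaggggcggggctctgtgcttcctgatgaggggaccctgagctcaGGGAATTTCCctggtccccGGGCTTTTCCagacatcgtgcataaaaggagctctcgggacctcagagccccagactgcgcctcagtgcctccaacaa
Cxcl3: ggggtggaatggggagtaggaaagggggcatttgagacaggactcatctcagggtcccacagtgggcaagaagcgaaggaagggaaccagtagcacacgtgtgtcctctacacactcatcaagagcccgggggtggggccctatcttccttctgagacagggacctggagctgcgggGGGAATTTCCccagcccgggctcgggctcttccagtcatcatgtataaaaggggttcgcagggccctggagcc

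The motif was present for 7 of 26 NF-kB list genes with a RefSeq promoter (26.9%), for 242 of 3749 genes measured in any lineage (6.46%) and for 1274 of 27025 genes in all (4.71%). No match to this form was found in these windows of Socs3, Icam1, Birc3, Plaur, Il1b or Ccl22. A match describes letters in a window and is not a measured binding site.

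A list of 35 NF-kB targets and feedback genes was lower in TRIF-KO TNF in most lineages, with 0 members 2-fold higher in any. In NK barcodes 5 of 9 measured members were at least 2-fold lower (all NK genes 1.73%), and the median log2 ratio of the list was -1.07 against 0.00 over all genes. In neutrophils 10 of 28 were (all neutrophil genes 5.66%), with a median of -0.77 against -0.16. In monocytes and macrophages 8 of 29 were (all genes 1.75%), with a median of -0.53 against 0.06. Every measured member lay below 0 in these lineages.

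In T barcodes 1 of 16 members was 2-fold lower (all T genes 1.31%), all 16 lay below 0 and the median was -0.72 against 0.08. Dendritic barcodes had 3 of 18 lower (all dendritic genes 2.12%) and a median of -0.24 against 0.02. B barcodes had 0 of 13 lower (all B genes 0.112%) and a median of -0.14 against 0.04, and the 3 members measured in erythroid barcodes all lay above 0. In the PBS pair the list medians were -0.13 in B (-0.08 over all genes), -0.22 in T (-0.10), -0.36 in NK (0.02) and -0.34 in neutrophils (-0.04). They were 0.14 in monocytes and macrophages (-0.12) and 0.30 in dendritic barcodes (0.05). Of the 9 NK members, 3 were already at least 2-fold lower with PBS and 0 higher. Of 28 members read with PBS, 2 were lower and 2 higher in neutrophils. In monocytes and macrophages 2 of 28 were lower and 3 higher.

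**Figure D2:**
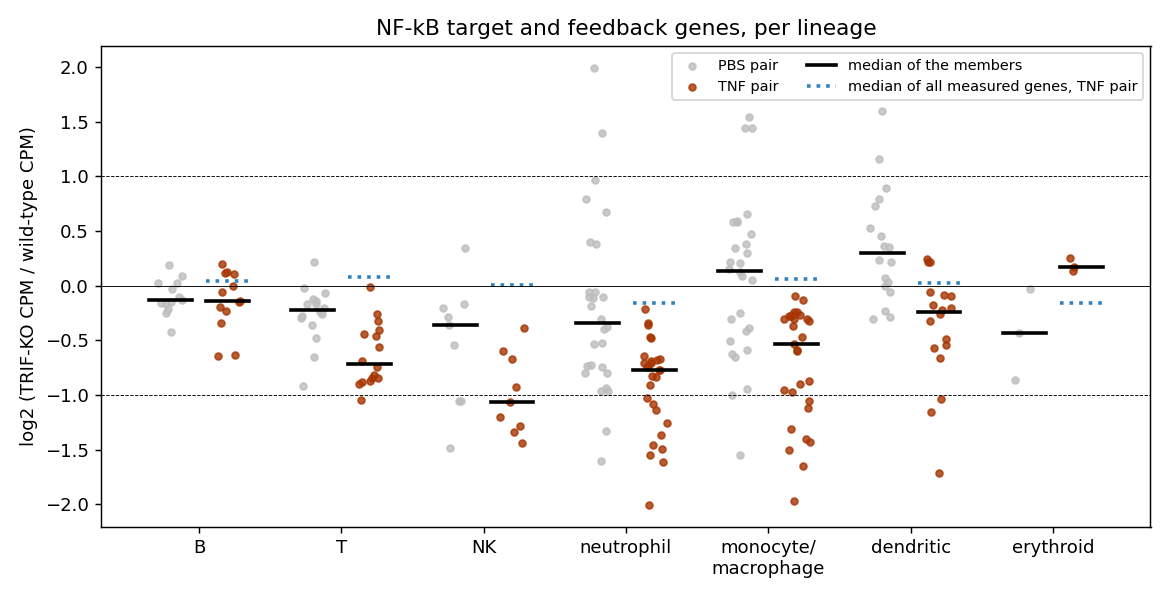
log2 ratio of TRIF-KO to wild-type CPM for each measured NF-kB list member (points), per lineage, in the PBS pair (grey) and the TNF pair (brown), with list medians (black) and the median of all measured genes (dotted). In NK, neutrophil and monocyte/macrophage barcodes every TNF point lies below 0.

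Nfkbia encodes IkB-alpha, the inhibitor that NF-kB induces to shut itself off. Nfkbia stood at 208, 915, 100 and 338 CPM in NK barcodes, at 451, 2476, 313 and 1448 CPM in neutrophils, and at 336, 1696, 283 and 877 CPM in monocytes and macrophages. TRIF-KO TNF lay above both PBS libraries and below wild-type TNF in each, with log2 ratios of -1.44 (-1.72 to -1.16), -0.77 (-0.87 to -0.68) and -0.95 (-1.07 to -0.84). In B barcodes Nfkbia was flat, at 256, 239, 260 and 261 CPM.

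Tnfaip3 encodes A20, a deubiquitinase that dampens NF-kB. In neutrophils Tnfaip3 stood at 25.6, 360, 20.7 and 89.8 CPM (log2 ratio -2.00, -2.28 to -1.73) and in monocytes and macrophages at 16.1, 330, 24.2 and 122 CPM (-1.43, -1.72 to -1.15). The PBS pair differed by -0.31 and 0.59, with intervals that include 0. In NK barcodes it stood at 44.1, 215, 15.7 and 85.0 CPM, and there it was lower in TRIF-KO with PBS too.

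Rel, an NF-kB subunit, stood at 123, 171, 73.9 and 62.3 CPM in neutrophils and 137, 181, 105 and 63.9 CPM in monocytes and macrophages. Birc3, an inhibitor of apoptosis, stood at 208, 676, 124 and 282 CPM in neutrophils. Traf1, a TNF receptor adaptor, stood at 115, 526, 94.2 and 229 CPM in NK barcodes and at 11.9, 336, 34.6 and 127 CPM in monocytes and macrophages. Icam1, an adhesion molecule, stood at 5.13, 360, 8.87 and 139 CPM in neutrophils. Each was highest in wild-type TNF, and without barcodes rich in granule-precursor RNA the Icam1 log2 ratio in neutrophils was -0.92.

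**Figure D3:**
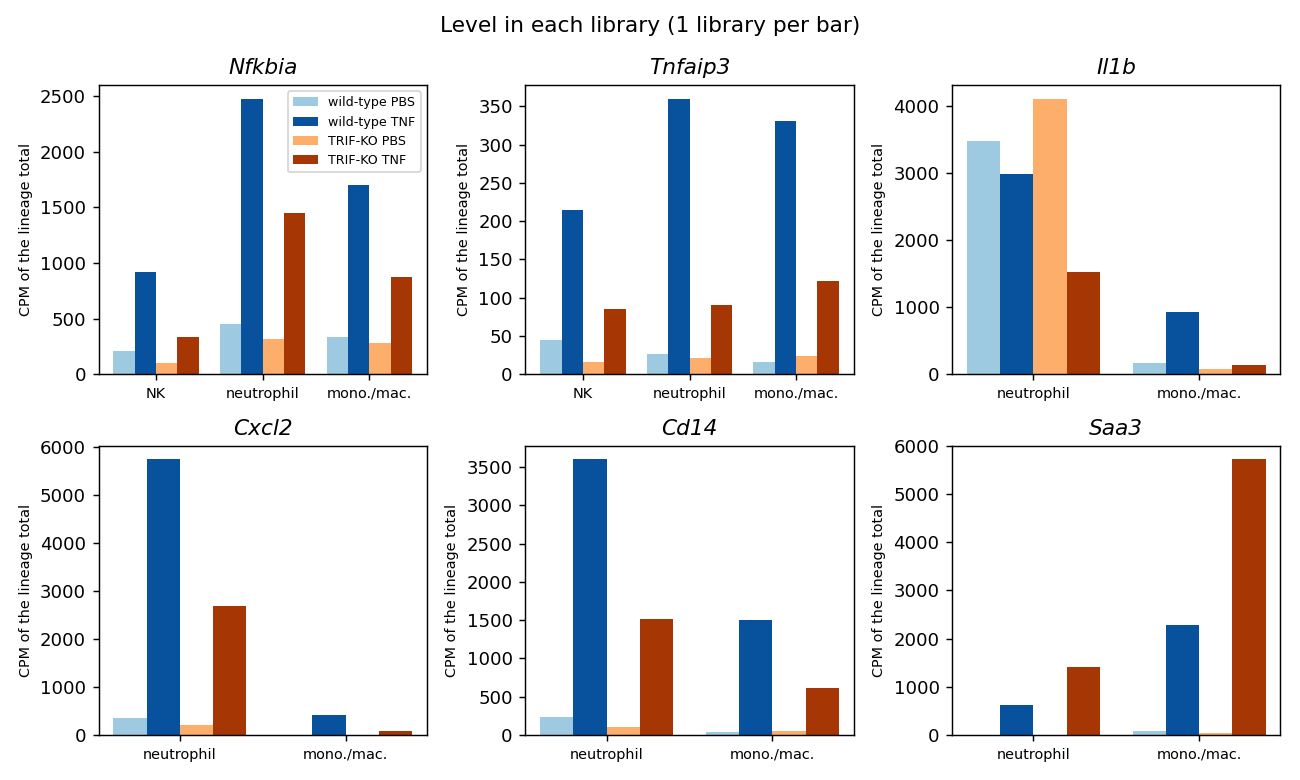
Level of 6 genes (CPM of the lineage total) in the 4 libraries, for neutrophils and monocytes and macrophages, and for Nfkbia and Tnfaip3 also NK barcodes; 1 library per bar. Saa3 alone is highest in TRIF-KO TNF in both phagocyte lineages.

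Chemokines, which recruit leukocytes, were at least 2-fold lower in neutrophils for 5 of 7 measured members and higher for 1 (all neutrophil genes 5.66% lower and 3.23% higher), and lower in monocytes and macrophages for 2 of 6 (all genes 1.75%). Without barcodes rich in granule-precursor RNA 2 of 6 were lower in neutrophils, and the list median went from -2.08 to -0.59. Cxcl2, a neutrophil attractant, stood at 349, 5737, 213 and 2686 CPM in neutrophils and at 0.847, 411, 1.61 and 83.0 CPM in monocytes and macrophages. Its neutrophil log2 ratio was past 2-fold but stood at -0.94 with median-of-ratios scaling, -0.92 with equal weight per barcode and -0.88 without precursor barcodes. Cxcl3 stood at 0, 223, 14.8 and 8.27 CPM in neutrophils, with a log2 ratio of -4.76 (-5.41 to -4.15) in the TNF pair. The TRIF-KO values rest on 5 UMIs with PBS and 28 with TNF, and wild-type TNF on 111. Ccl6 went the other way from Cxcl2 across treatments, at 1860, 390, 2351 and 92.1 CPM, and was again lowest in TRIF-KO TNF.

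Cxcl10, an attractant of T and NK cells, stood at 0, 287, 0 and 67.2 CPM in NK barcodes. In monocytes and macrophages it stood at 169, 268, 10.5 and 66.4 CPM, but 147 of its 176 wild-type TNF UMIs there came from 1 barcode, and without the top barcode of each library the log2 ratio was 0.043. Cxcl9 was the neutrophil chemokine that was higher, at 15.4, 14.1, 0 and 85.3 CPM, and 162 of its 289 TRIF-KO UMIs came from 1 barcode; with equal weight per barcode its log2 ratio was 0.62. In dendritic barcodes Ccl22, an attractant of T cells, stood at 4.45, 369, 1.74 and 79.5 CPM.

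Inflammatory cytokines and effectors were mixed, with 4 of 14 lower (all genes 1.75%) and 2 higher (1.84%) in monocytes and macrophages and 3 of 16 lower (5.66%) and 1 higher (3.23%) in neutrophils. Il1b, a fever-inducing cytokine, stood at 172, 929, 73.3 and 138 CPM in monocytes and macrophages (log2 ratio -2.75, -2.98 to -2.53). The PBS pair differed the same way by -1.23. Il1rn, the IL-1 receptor antagonist, stood at 20.3, 878, 12.1 and 404 CPM, and its log2 ratio was -0.63 in C1q-positive barcodes alone. Acod1, which makes itaconate, stood at 0, 143, 0 and 39.3 CPM.

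Saa3, an acute-phase protein, went against these genes. It stood at 76.3, 2285, 33.8 and 5717 CPM in monocytes and macrophages (log2 ratio 1.32, 1.24 to 1.40) and at 0, 620, 2.96 and 1412 CPM in neutrophils (1.19, 1.02 to 1.36). Hp, which encodes haptoglobin, stood at 1141, 644, 685 and 1370 CPM in monocytes and macrophages. Both were higher in TRIF-KO TNF than in any other library. Neutrophil markers summed to 974 CPM in wild-type and 908 CPM in TRIF-KO monocytes and macrophages, with Ly6g at 0 in both. The part of neutrophil RNA in the Saa3 and Hp values was not tested.

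Cd14, the co-receptor that hands lipopolysaccharide to Toll-like receptor 4, stood at 237, 3599, 106 and 1510 CPM in neutrophils (log2 ratio -1.25, -1.33 to -1.17) and at 42.4, 1497, 49.9 and 606 CPM in monocytes and macrophages (-1.30, -1.43 to -1.18). In neutrophils the PBS pair differed by about as much, -1.16, whereas in monocytes and macrophages it differed by 0.24 (-0.32 to 0.80). The Cd14 ratio fell short of 2-fold in neutrophils without precursor barcodes (-0.68) and in monocytes and macrophages with equal weight per barcode (-0.97). Tnfrsf1a, the main TNF receptor, stood at 309, 125, 225 and 188 CPM in neutrophils and 165, 116, 140 and 139 CPM in monocytes and macrophages, a difference within counting error in the latter. Thbs1, a matrix protein, stood at 65.4, 3597, 11.8 and 739 CPM in neutrophils, with like ratios in the TNF pair (-2.28) and the PBS pair (-2.47).

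Type I interferon-stimulated genes had 0 members 2-fold lower in any lineage in the TNF pair with the main settings. Their median log2 ratio was 0.04 in B (0.04 over all B genes), -0.11 in T (0.08), -0.10 in NK (0.00), -0.05 in neutrophils (-0.16), 0.25 in monocytes and macrophages (0.06), 0.48 in dendritic (0.02) and 0.14 in erythroid barcodes (-0.16). In the PBS pair the list median lay below 0 in each lineage. It was -0.30 in B (-0.08 over all B genes), -0.21 in T (-0.10), -0.23 in NK (0.02) and -0.49 in neutrophils (-0.04). In monocytes and macrophages it was -0.20 (-0.12), in dendritic barcodes -0.29 (0.05) and in erythroid barcodes -0.36 (-0.48). In the TNF pair Oas2 and Oas3, sensors of double-stranded RNA, were the 2 of 21 measured members 2-fold higher in neutrophils (all genes 3.23%), at 73.1, 14.1, 17.7 and 50.5 CPM and at 214, 54.3, 118 and 124 CPM. Ifit1 was the 1 of 23 that was 2-fold higher in monocytes and macrophages (all genes 1.84%). Its log2 ratio was 1.16, but -0.83 with equal weight per barcode and -1.37 in C1q-positive barcodes alone. The list median in monocytes and macrophages was 0.02 with equal weight per barcode (0.05 over all genes). In C1q-positive barcodes alone the list median was -0.35 (0.01 over all genes), with 9 of 12 members below 0. There 1 of the 12 was at least 2-fold lower, against 36 of 1332 genes in all.

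Neutrophil barcodes had the most genes at least 2-fold different, 77 higher and 135 lower of 2387, and scaling by the median of ratios gave 109 and 89. The median of all measured genes was -0.16 there. Dusp2 and Rgs1, a phosphatase and a regulator of G-protein signalling, stood at 2.56, 153, 29.6 and 30.7 CPM and at 2.56, 209, 35.5 and 40.2 CPM. The Rgs1 log2 ratio was -2.38, but -0.87 with at least 3 markers per barcode. Steap4, a metalloreductase, was higher in TRIF-KO TNF, at 305, 8.05, 127 and 94.5 CPM, as was Trp53inp1, at 164, 20.1, 145 and 119 CPM. For both, wild-type TNF was the low library, and its values rest on few UMIs, out of 497097 in wild-type TNF neutrophils. The Steap4 log2 ratio was 3.55 with a lower bound of 2.18, and that of Trp53inp1 2.57 with a lower bound of 1.67.

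All 32 listed ribosomal protein genes lay below 0 in neutrophils, with a median of -0.61 against 0.63 in the PBS pair. Haemoglobin took 0.340% of neutrophil UMIs in wild-type TNF and 2.44% in TRIF-KO TNF, and barcodes with granule-precursor genes were 44 of 97 and 180 of 406. With PBS, barcodes with granule-precursor genes were only 6 of 160 in wild-type and 5 of 109 in TRIF-KO. PBS and TNF values in neutrophils therefore come from gates of different make-up. The part of haemoglobin and of precursor barcodes in the neutrophil differences was not tested. Without the precursor barcodes the NF-kB list kept its sign, with 24 of 25 members below 0 and a median of -0.55, but 6 of 25 members were 2-fold lower in place of 10 of 28. Of 44 named 2-fold values in neutrophils, 30 stayed past 2-fold and 14 did not.

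Monocyte and macrophage barcodes were shallow in the TNF libraries, with medians of 1450 and 1553 UMIs. C1q-positive barcodes (at least 2 C1q genes) were 46 of 124, 105 of 155, 115 of 232 and 225 of 302 in the 4 libraries. The PBS and TNF gates thus differed in make-up, and the part of this in the values was not tested. In the TNF pair 57 genes were higher (1.84%) and 54 lower of 3094. Leaving in 1 wild-type and 4 TRIF-KO barcodes rich in granulocyte-precursor RNA gave 99 and 69. Ifi205, an interferon-inducible gene, stood at 32.2, 808, 25.8 and 207 CPM, and Plaur, the urokinase receptor, at 103, 260, 101 and 73.1 CPM. Chil3, a chitinase-like protein, was higher in TRIF-KO TNF, at 1515, 132, 711 and 706 CPM, so that the wild-type TNF library was the one that stood low. Its log2 ratio was 2.41, but only 0.19 with those precursor barcodes left in. Of 1848 genes measured in both phagocyte lineages, 95 were lower in neutrophils and 44 in monocytes and macrophages, and 21 were in both (22.1% and 47.7%), among them Cd14, Cxcl2, Rel, Tnfaip3, Nlrp3 and Acod1. Higher were 42 and 24, with 7 in both (16.7% and 29.2%), among them Saa3 and Cebpd.

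T barcodes had 3 genes higher (0.123%) and 32 lower of 2444. Map3k8, a kinase upstream of MAP kinases, stood at 13.6, 87.5, 8.10 and 24.5 CPM (log2 ratio -1.84, -2.04 to -1.64). Socs1 stood at 47.7, 235, 49.8 and 103 CPM, and Irf1, a transcription factor of interferon responses, at 101, 222, 91.6 and 107 CPM. These were highest in wild-type TNF and near their PBS levels or between in TRIF-KO TNF.

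The interferon-gamma receptor chains Ifngr1 and Ifngr2 stood at 146, 401, 98.0 and 176 CPM and at 22.7, 66.7, 23.1 and 25.5 CPM in T barcodes. Of 14 measured lymphocyte activation genes 13 lay below 0, with a median of -0.62 against 0.08 over all T genes. Of these 14, 2 were 2-fold lower, Batf and Gadd45g (all T genes 1.31%). The list median in the PBS pair was -0.13. Haemoglobin took 0.199% and 0.702% of T UMIs, and neutrophil markers summed to 58.9 and 213 CPM there; their part was not tested. The 3 higher genes were Dtx1, a Notch regulator, at 66.1, 22.3, 83.5 and 59.9 CPM, Bbc3, a pro-apoptotic BCL2 family member, at 31.4, 28.2, 32.3 and 69.2 CPM, and Dynll1, a dynein light chain. Dtx1 was low only in wild-type TNF, and Bbc3 was high only in TRIF-KO TNF.

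NK barcodes, 64 and 70, had 6 genes higher (0.545%) and 19 lower of 1100. Xcl1, which attracts cross-presenting dendritic cells, stood at 539, 762, 242 and 233 CPM and was lower in TRIF-KO with PBS as well. Irf8 stood at 404, 1417, 300 and 619 CPM, and Junb, an AP-1 subunit, at 282, 587, 295 and 241 CPM. Klra9, an NK receptor, was higher in TRIF-KO TNF, at 551, 147, 640 and 346 CPM.

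B barcodes, the lineage with the most summed UMIs, had 0 genes higher and 3 lower of 2676, and 98.4% lay within 1.5-fold. These were Socs3, a feedback inhibitor of cytokine signalling, at 6.29, 149, 4.65 and 61.9 CPM, Plaur, at 44.6, 126, 50.9 and 60.4 CPM, and Gm49980, a predicted gene.

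Dendritic barcodes had 29 genes higher (2.36%) and 26 lower of 1229. Ccl5 stood at 123, 1889, 489 and 615 CPM, and Ppt1, a lysosomal enzyme, at 1036, 70.9, 793 and 275 CPM. The Ppt1 log2 ratio was 1.95, but 0.97 with equal weight per barcode. Monocyte and macrophage markers summed to 1005 CPM in wild-type and 251 CPM in TRIF-KO dendritic barcodes, with C1qa, C1qb, C1qc and Adgre1 among those at 0 in wild-type and C1qb at 0 in TRIF-KO, and their part in these differences was not tested.

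Erythroid barcodes had 0 genes higher and 22 lower of 988 (2.23%), and leaving abundant families out of the total gave 6 and 32. Histone cluster genes, which package newly made DNA, made up 20 of the 22. All 28 measured histone genes lay below 0, with a median of -1.15 against -0.16 over all erythroid genes. Hist1h2ab stood at 560, 500.5, 260 and 175 CPM and Hist1h3e at 88.6, 107, 38.1 and 35.1 CPM. Both TRIF-KO libraries were low, and the histone median in the PBS pair was -1.04. Histone genes are near-identical copies, so single values are uncertain. Of 20 cell cycle genes 0 were 2-fold lower, 19 lay below 0 and the median was -0.48.

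**Figure D4:**
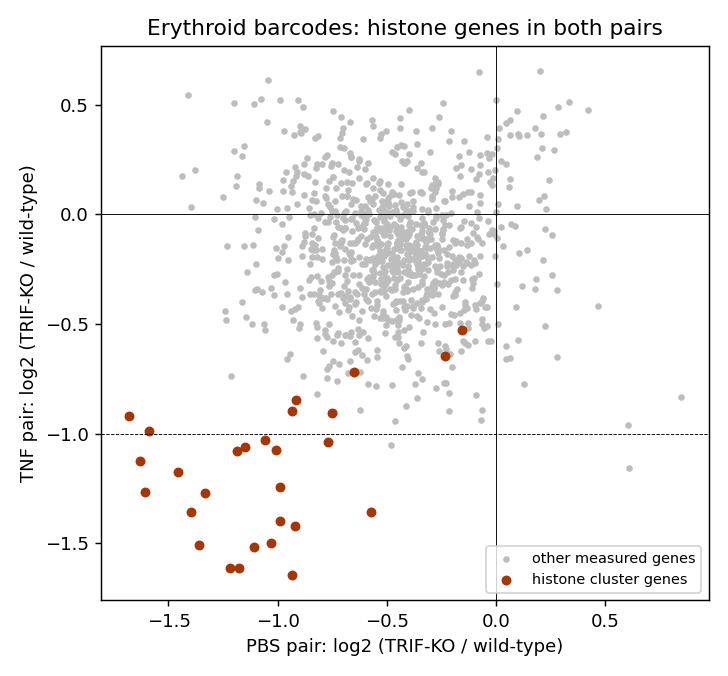
log2 ratio of TRIF-KO to wild-type CPM in erythroid barcodes, PBS pair (x axis) against TNF pair (y axis); each point is a measured gene. The 28 histone cluster genes (brown) lie below 0 in both pairs.

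Cell death genes were mixed. Of 10 measured in neutrophils, 3 were lower (all genes 5.66%) and 1 higher (3.23%), and of 14 in monocytes and macrophages 2 were lower (1.75%). In neutrophils Bcl2l11 (the BCL2 family killer BIM), Apaf1 and Nlrp3 (the inflammasome sensor) were lower and Pycard, the inflammasome adaptor, was higher, and in monocytes and macrophages Cflar and Nlrp3 were lower. The Bcl2l11 log2 ratio was -1.30, but -0.79 with equal weight per barcode and -0.76 without precursor barcodes, and Pycard fell to 0.94 with equal weight. Nlrp3 stood at 182, 197, 192 and 71.2 CPM in neutrophils, so that TRIF-KO TNF alone was low, and at 30.5, 192, 32.2 and 81.1 CPM in monocytes and macrophages. Cflar, which blocks caspase-8, stood at 74.6, 320, 81.3 and 147 CPM in monocytes and macrophages.

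Interferon-gamma GTPases and antigen-processing genes were lower for 2 of 13 in neutrophils, Cd274 and Gbp5 (all genes 5.66%), 1 of 20 in T (1.31%), 1 of 12 in NK (1.73%) and 0 of 12 in B barcodes. Irf8 was 2-fold higher in monocytes and macrophages, at 190, 51.8, 256 and 120 CPM, and in dendritic barcodes, whereas in NK barcodes it was lower. With equal weight per barcode its log2 ratio was -0.046 in dendritic barcodes and 0.93 in monocytes and macrophages. Cytotoxic effectors were lower for 2 of 6 in T barcodes (all genes 1.31%), and Gzmb, a granule protease, stood there at 7.05, 126, 3.10 and 54.8 CPM. Without its top barcode Gzmb was less than 2-fold lower.

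Of 11 dendritic cell maturation genes measured in neutrophils, 6 were lower (all genes 5.66%), namely Cd74, H2-Aa, H2-Ab1, Fabp5, Fscn1 and Il4i1, and the list median was -1.0 against -0.16 over all genes and -1.60 in the PBS pair. Of 2 cold-inducible genes measured there, 1 was lower, Cirbp (all genes 5.66%), and their median was -1.17 against 0.72 in the PBS pair. Heat-shock and nuclear oxidative phosphorylation genes had 0 members 2-fold different in any lineage. The haem and erythroid list had 0 of 15 in erythroid barcodes, with a median of -0.06. Of 21 neutrophil granule and surface genes, 1 was 2-fold higher in neutrophils, Ceacam1, near the share of all neutrophil genes (3.23%). The list median was 0.22 against -0.16 over all genes. In the PBS pair 3 of the 21 were higher and 2 lower, with a median of 0.33. Of 11 glucocorticoid-responsive genes in neutrophils 2 were higher (all genes 3.23%), Cebpd and Zfp36l2, and Cebpd stood at 665, 123, 798 and 283 CPM. In monocytes and macrophages 2 of 11 were higher (1.84%), Cebpd and Ddit4, and 2 lower (1.75%), Dusp1 and Mt2.

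A gene was taken as shared when it differed at least 2-fold the same way in 4 or more lineages. Of 1581 genes measured in at least 4, 0 were higher and 1 (0.0633%) was lower, Gm11808, which no longer met the rule with median-of-ratios scaling, thinning, doublet removal, 3 markers or the top barcode removed. At 1.5-fold, a threshold added after the 2-fold count was seen, 3 (0.19%) were higher, Rsrp1, Dynll1 and Gm10076, and 17 (1.08%) lower. The 17 included the feedback genes Nfkbia, Socs3 and Birc3, the transcription factors Junb and Bhlhe40, and 3 histone genes, Hist1h4d, Hist1h1e and H3f3b. Of the 17, 9 met the rule after thinning, and 9 with equal weight per barcode. Socs3 was higher in neutrophils (247 and 337 CPM).

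**Figure D5:**
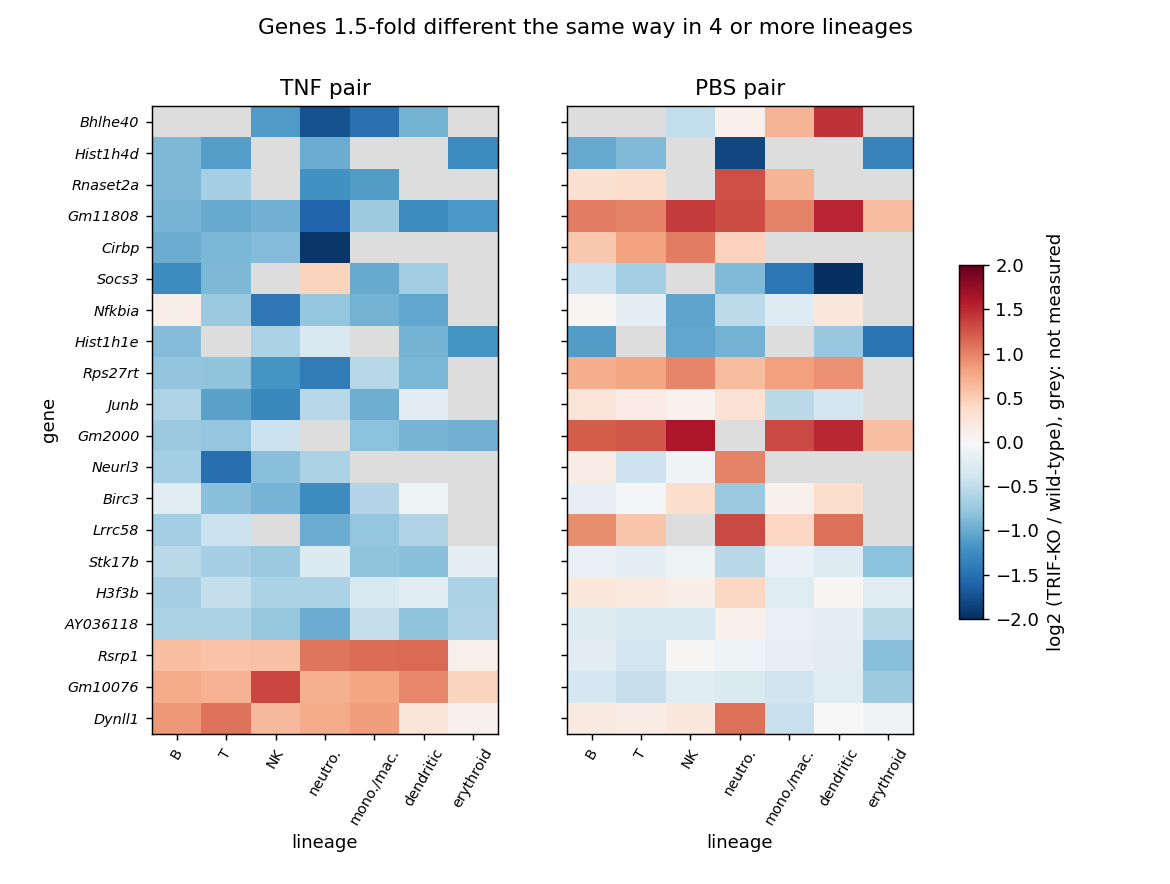
log2 ratio of TRIF-KO to wild-type CPM by lineage (columns) for the 20 genes 1.5-fold different the same way in 4 or more lineages, in the TNF pair (left) and the PBS pair (right). Gm11808, Gm2000 and Rps27rt are lower in the TNF pair and higher in the PBS pair.

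Bhlhe40 stood at 19.2, 189, 20.7 and 56.7 CPM in neutrophils and 16.1, 242, 25.8 and 86.0 CPM in monocytes and macrophages. Most differences were not shared: 153 genes were 2-fold higher and 191 lower in exactly 1 lineage, 8 and 39 in 2, and 1 and 6 in 3. A difference was taken as specific when it was 2-fold in 1 lineage, with a bound past 1.5-fold, and in every other measured lineage, at least 3, the higher library was at most 25% above the lower. That held for 2 higher and 13 lower differences, 1 and 11 of them in neutrophils and 1 and 2 in dendritic barcodes. The set depended on the settings, and of these 15 only 5 were kept with median-of-ratios scaling, 4 with equal weight per barcode, 3 with 3 markers, 5 without the top barcode and 7 without neutrophil precursor barcodes.

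The neutrophil ones included Zfp36l2, an mRNA-decay factor, at 677, 90.5, 656 and 214 CPM, with a log2 ratio of 0.68 without precursor barcodes. The antigen-presentation genes Cd74, H2-Aa and H2-Ab1 were lower in neutrophils with PBS too (-1.62, -2.19 and -3.01). With at least 3 markers per barcode H2-Aa and H2-Ab1 changed sign, to 0.65 and 0.90, and Cd74 went from -1.16 to -0.17. B cells also express these genes, and B-cell markers summed to 94.5 CPM in wild-type and 31.6 CPM in TRIF-KO neutrophils, and their part was not tested.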

How the data were processed

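The 4 libraries were grouped by their genotype and treatment labels. The deposited files hold raw UMI counts for 32285 features. Per the submitters' processing notes the authors used Cell Ranger 3.0 and Seurat 4.1.1 with mm10, while the file headers name cellranger 6.0.1.

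Counts were summed per library and lineage and scaled to CPM with Python 3.11, numpy 2.4.6, scipy 1.17.1 and pandas 2.3.3. CPM have exact Poisson, ratios exact conditional and shares exact binomial 95% intervals, for counting error only. A lineage needed 40 barcodes per library. Gate markers and genes under 5% of their CPM in another lineage of the library were not counted. Scripts were tested on simulated data.

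Named genes were, per lineage, the 4 highest and 4 lowest ratios by the bound nearest to 1, shared and specific genes, and members of 22 gene lists; others were chosen after their values were seen. Members and lists were chosen with earlier results of these data known, and the motif likewise. After seeing barcode counts the gate was changed so that phagocyte lists do not compete. After seeing ratios, plasmacytoid barcodes were taken out of the dendritic gate and its minimum lowered from 50 to 40, precursor barcodes were taken out of the monocyte/macrophage gate, and gate markers were left out. Alternatives covered scaling, depth, weighting, filters, doublets (scanpy 1.11.5, Scrublet) and gates.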

Additional observations from a re-analysis of the deposited data

Results flagged for a closer look

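The shares of 3 lineages differed between the libraries in opposite directions with PBS and with TNF, with both intervals away from 1. The difference between the pairs itself was not tested. The ratio of TRIF-KO to wild-type was 3.11 with TNF and 0.301 with PBS for neutrophils, 1.59 and 0.627 for erythroid barcodes, and 0.813 and 1.09 for B barcodes.

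3 genes were at least 1.5-fold lower with TNF and at least 1.5-fold higher with PBS in 4 or more lineages, also untested. Gm11808 had a median log2 ratio over lineages of -1.0 with TNF and 1.02 with PBS, in 7 of 7 lineages. Gm2000 had -0.80 and 1.29, and Rps27rt -0.85 and 0.81, each in 5 of 6. In all 3 the order is the same in lymphoid and phagocyte lineages. Predicted genes and Rps27rt may share reads with near-identical copies, so their values are uncertain.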

How the results depend on the processing

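No paired analysis was possible because each group has 1 library and the labels carry no replicate numbers. Over all settings the NF-kB list's median log2 ratio was -0.79 to -0.64 in T, -1.31 to -0.73 in NK, -0.86 to -0.55 in neutrophil, -0.91 to -0.40 in monocyte/macrophage and -0.41 to -0.16 in dendritic barcodes, and it crossed 0 in B (-0.18 to 0.019) and erythroid barcodes (-0.021 to 0.33). Counts of 2-fold genes moved by over 1.5 times as follows. With a filter of 50 UMIs and 20 CPM they were 98 in whole spleen, 8 in B, 64 in T, 69 in NK, 486 in neutrophil, 286 in monocyte/macrophage, 163 in dendritic and 36 in erythroid barcodes, with 1 shared higher gene, 26 lower and 5 higher at 1.5-fold, and 23 specific genes. CPM without abundant families gave 80 in whole spleen, 6 in B and 38 in erythroid barcodes. Equal weight per barcode gave 7 in B, 244 in monocyte/macrophage and 109 in erythroid barcodes, 10 shared lower genes at 1.5-fold and 26 specific genes. Thinning the deeper library gave 81 in neutrophil and 59 in monocyte/macrophage barcodes, 0 shared lower genes and 9 at 1.5-fold. At most 5% mitochondrial UMIs gave 10 in B barcodes, a B share ratio of 0.615 and 10 shared lower genes at 1.5-fold. At least 3 markers gave 0 shared lower genes, 10 at 1.5-fold and 7 specific genes. Median-of-ratios scaling gave 14 in erythroid barcodes and 0 shared lower genes, and doublet removal 0. Removing each gene's top barcode gave 36 in dendritic barcodes and 10 shared lower genes at 1.5-fold. Of alternatives chosen after seeing the data, precursor barcodes kept gave 168 and C1q-positive barcodes alone 58 in monocyte/macrophage barcodes. Gating on 1000 UMIs, also chosen then, gave a dendritic share ratio of 0.465, from only 8 wild-type and 5 TRIF-KO barcodes. Signs turned for Cxcl10 in monocytes and macrophages (0.043 without the top barcode), H2-Aa (0.65) and H2-Ab1 (0.90) in neutrophils with 3 markers, Ifit1 in monocytes and macrophages (-0.83 with equal weight, -1.37 with C1q) and Irf8 in dendritic barcodes (-0.046 with equal weight). The cause was not tested. Of 131 named 2-fold values, 29 fell below 2-fold or turned with equal weight per barcode, 14 with the top barcode removed and 8 with median-of-ratios scaling, as did 14 of 44 in neutrophils without precursor barcodes. Dendritic barcodes were too few to compare with 3 markers or 5% mitochondrial UMIs. Without the top barcode AW112010, Fth1, Nfkb1 and Sod2 in dendritic, Cd74, Cox17, Ets1, H2-Aa, H2-Ab1 and Larp4b in neutrophil, Gzmb and Gm11808 in T and Socs3 in monocyte/macrophage barcodes fell below 2-fold.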
